A study of Mus musculus with 12 samples.

Results

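The newly assembled lncRNA transcripts are the rows of the deposited lncRNA table whose identifier starts with MSTRG, the prefix that transcript assemblers such as StringTie give by default to models built from the reads. Of 52170 transcripts in the table, 1409 carry this prefix, and 81 of those were listed at 0 in every library. Members were the transcripts with a mean of at least 1 TPM, a length-corrected share of the library's transcripts with a fixed total per library, over the 12 libraries. This left 175 members at 145 assembled loci, after 1 transcript of the 176 above the threshold was left out. They were selected on the measured level itself, so the level of a member is a description and not a finding.

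The libraries are liver RNA of C57BL/6 mice. In the NAC_HFD group (4 libraries) mice had a high fat diet with 2 g/L of N-acetylcysteine (NAC), a thiol antioxidant and cysteine donor, in the drinking water. In the HFD group (4 libraries) mice had the high fat diet alone, and in the NFD group (4 libraries) a normal fat diet. Mice in every group were labelled as 8 weeks old and were on their diet for 14 weeks. All groups share the strain, and the labels name no mutation or transgene. The study asked how NAC acts on the hepatic lncRNA profile in diet-induced fatty liver.

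Long noncoding RNAs are transcripts without a long conserved reading frame. Some act in the nucleus on chromatin or on splicing, others bind proteins or microRNAs in the cytoplasm, and many have no known role. A reference-guided assembly adds transcripts that no annotation holds, and also unannotated isoforms, read-through pieces and fragments of abundant coding transcripts. No member has an assigned function here, and the position and sequence of the members were not analysed here.

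The samples have the profile of liver. All 10 hepatocyte markers were present, with summed levels of 50701 to 73708 TPM per library, and the exocrine pancreas markers reached at most 0.16 TPM. The summed gut and gallbladder markers (2 of 4 in the table, 1 of them at a mean of at least 1 TPM) were 50.9 to 67.4 TPM in NAC_HFD, 80.9 to 113 TPM in HFD and 44.4 to 82.1 TPM in NFD, so NAC_HFD lay below HFD without overlap. Summed Kupffer cell markers were 74.7 to 147 TPM in NAC_HFD, 108 to 271 TPM in HFD and 80.9 to 153 TPM in NFD. Of 5 adipose markers 4 were in the table, 1 of them at a mean of at least 1 TPM. Their sums were 0.14 to 1.75 TPM in NAC_HFD, 4.87 to 32.8 TPM in HFD and 0.08 to 0.65 TPM in NFD. The part of any of these markers in the results was not tested. Mitochondrial genes made up 8.91 to 12.6% of the gene table. Library NAC_HFD2 stood apart, with the highest value of 33.7% of the members. Some of the sums, medians and levels that this library moved are given with and without it. Because this is bulk tissue, fewer cells of a type and less RNA per cell cannot be told apart in any value given here.

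One member dominates every library. MSTRG.6188.1 took 25.9%, 23.5%, 27.0% and 26.9% of all transcript TPM in the NAC_HFD libraries, 26.2%, 25.5%, 24.2% and 26.8% in the HFD libraries, and 25.9%, 25.9%, 27.1% and 29.6% in the NFD libraries. The groups overlapped, and the highest and the lowest library of the series were NFD4 and NAC_HFD2. Its share averaged 25.8 ± 1.62% in NAC_HFD, 25.7 ± 1.12% in HFD and 27.1 ± 1.74% in NFD (SD, n = 4 each). Two-sided exact permutation tests gave p = 0.886 for NAC_HFD against HFD, p = 0.371 for NAC_HFD against NFD and p = 0.257 for HFD against NFD, where 0.0286 is the smallest p that 4 against 4 libraries allow. The difference between NAC_HFD and HFD was 0.121 percentage points, and it turned to -0.94 percentage points when the share was taken of the lncRNA table alone. Within the lncRNA table the transcript held 69.3 to 76.0% of the TPM. In mean level (262017 TPM) it stood 48.0 times above the second member and 8.45 times above the most abundant transcript of any other kind, an albumin (Alb) transcript at 31012 TPM. It also had the smallest coefficient of variation of all members, 5.84% over the 12 libraries. Whether MSTRG.6188.1 is a lncRNA or another abundant RNA that the libraries kept was not tested, so its shares and ratios describe an assembled transcript of open identity.

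**Figure D1:**
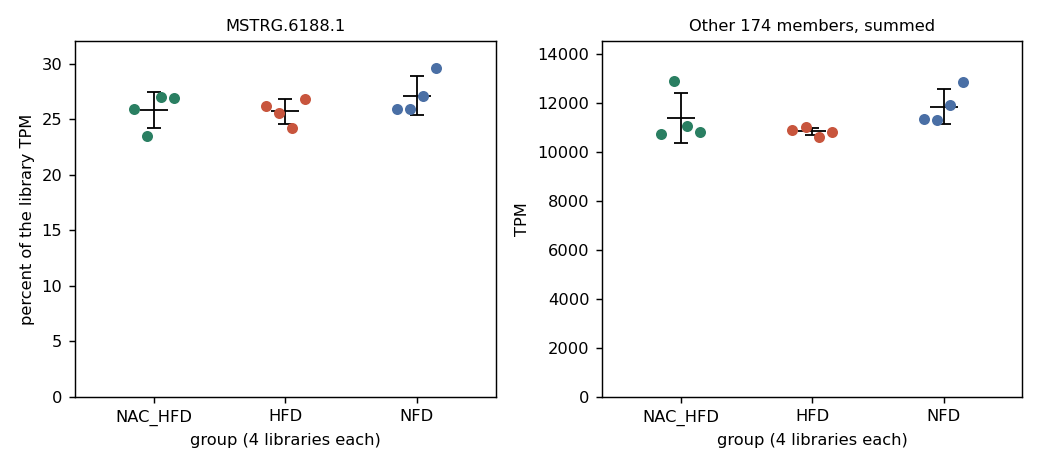
Left, percent of the library TPM in MSTRG.6188.1, and right, summed TPM of the other 174 members, for each library of the NAC_HFD, HFD and NFD groups. Points are libraries, and bars are the mean and SD of 4 libraries. The share lies between 23.5% and 29.6% with overlapping groups, and NAC_HFD2 has the highest sum, 12896 TPM.

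The other 174 members together held far less. Their sums were 10719, 12896, 11055 and 10797 TPM in NAC_HFD, 10891, 10998, 10617 and 10792 TPM in HFD, and 11335, 11285, 11887 and 12856 TPM in NFD. Every HFD library was below every NFD library, while the NAC_HFD libraries spread across both. The means were 11367 ± 1030 TPM in NAC_HFD, 10824 ± 162 TPM in HFD and 11841 ± 730 TPM in NFD (SD, n = 4 each). Without NAC_HFD2 the NAC_HFD mean was 10857 ± 176 TPM, which puts the difference from HFD at 32.6 TPM, against 542 TPM with it. HFD minus NFD was -1016 TPM as deposited and -164 TPM with median-of-ratios scaling, and NAC_HFD minus NFD was -474 TPM as deposited and 1132 TPM with that scaling. MSTRG.6188.3, an isoform of the dominant locus, makes up much of these sums. Without the locus MSTRG.6188 the sums were 6233 ± 1082 TPM in NAC_HFD, 5111 ± 99.5 TPM in HFD and 5352 ± 252 TPM in NFD (SD, n = 4 each). The HFD libraries (5057 to 5260 TPM) and the NFD libraries (5120 to 5622 TPM) then overlapped, with HFD minus NFD at -242 TPM. Every NAC_HFD library was above every HFD library, and NAC_HFD minus NFD was 880.5 TPM, the opposite sign to the sum with the locus. Without NAC_HFD2 the NAC_HFD mean was 5697 ± 178 TPM. Of the summed mean of the 174 members, 77.2% lay in the next 5 transcripts.

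Beyond the dominant transcript, 3 members averaged at least 1000 TPM, 5 averaged 100 to 1000 TPM, 43 averaged 10 to 100 TPM, 81 averaged 2 to 10 TPM and 42 averaged 1 to 2 TPM. The median of the members' means was 4.70 TPM, against 2.06 TPM for the 8396 other lncRNA transcripts with a mean of at least 1 TPM. Group means reached 1 TPM for 167 members in NAC_HFD, 164 in HFD and 167 in NFD, and for 155 members in all 3 groups. Another 13 members reached it in 2 groups, and 7 in 1 group only. Of these 7, MSTRG.21940.2, MSTRG.19757.1, MSTRG.25407.1, MSTRG.7970.1 and MSTRG.18962.1 reached it in NAC_HFD, and MSTRG.26274.5 and MSTRG.27798.1 in HFD. Those 7 passed the threshold through the group where they were high.

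The members just inside and outside the threshold were MSTRG.18962.1 (1.002 TPM) and MSTRG.7970.1 (1.01 TPM), and MSTRG.19372.2 (0.995 TPM) and MSTRG.12167.2 (0.986 TPM). MSTRG.18962.1 was listed at 0 in 8 libraries and reached 3.89 TPM in NAC_HFD2 and 3.72 TPM in HFD2. MSTRG.7970.1 had no zero and stayed between 0.66 and 1.35 TPM.

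The second most abundant member, MSTRG.6188.3, comes from the locus of the dominant transcript. It had 4940, 4726, 4982 and 4675 TPM in the NAC_HFD libraries, 5509, 5637, 5045 and 5347 TPM in the HFD libraries, and 5906, 5803, 5975 and 6964 TPM in the NFD libraries. The 3 groups did not overlap in any pair, with NAC_HFD lowest and NFD highest. None of the 3 differences passed limma's test after Benjamini-Hochberg adjustment over all tested lncRNA transcripts. The log2 fold change was -0.35 (SE 0.08, adjusted p = 0.116) for NAC_HFD against NFD, with 4831 ± 153 against 6162 ± 539 TPM (SD, n = 4 each). It was -0.16 (adjusted p = 0.559) for NAC_HFD against HFD and -0.19 (adjusted p = 0.601) for HFD against NFD.

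Relative to MSTRG.6188.1 the same transcript gave 19.1, 20.1, 18.5 and 17.4 TPM per 1000 TPM in NAC_HFD, 21.0, 22.1, 20.9 and 19.9 in HFD, and 22.8, 22.4, 22.1 and 23.5 in NFD. All NAC_HFD libraries were below all NFD libraries in this ratio, and HFD overlapped with both. For HFD and NFD, 1 HFD library (22.1) and 1 NFD library (22.1) crossed, and NAC_HFD2 (20.1) was above the lowest HFD library (19.9). The ratio cancels the scaling of a library, since both transcripts share it. MSTRG.6188.2, a smaller isoform, gave 0.494 ± 0.0677 TPM per 1000 TPM in NAC_HFD, 0.648 ± 0.0557 in HFD and 0.698 ± 0.0492 in NFD (SD, n = 4 each). Its level was 153, 105, 131 and 122 TPM in NAC_HFD, 175, 182, 141 and 169 TPM in HFD, and 178, 169, 184 and 227 TPM in NFD. NAC_HFD lay below NFD in every library, without passing the test (limma log2 fold change -0.57, SE 0.15, adjusted p = 0.131). The fourth transcript of the locus, MSTRG.6188.4, ran the other way in this ratio, at 0.686 ± 0.191 TPM per 1000 TPM in NAC_HFD, 0.631 ± 0.137 in HFD and 0.505 ± 0.0884 in NFD (SD, n = 4 each), with overlapping groups. How the authors' quantification divides reads between isoforms of 1 locus bears on each of these values.

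**Figure D2:**
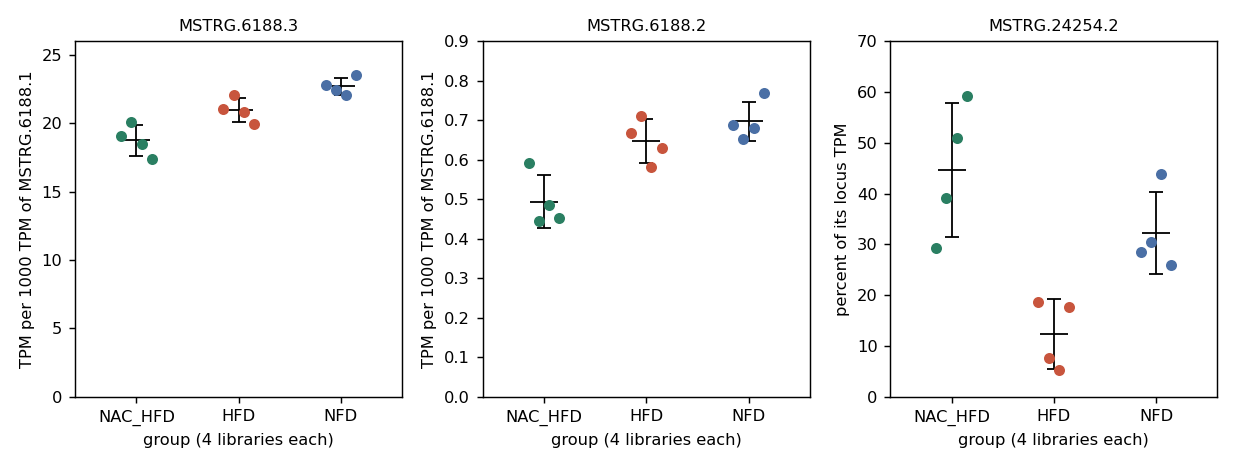
TPM of MSTRG.6188.3 and of MSTRG.6188.2 per 1000 TPM of MSTRG.6188.1 (left and middle) and percent of the TPM of its locus held by MSTRG.24254.2 (right), per library of the NAC_HFD, HFD and NFD groups. Points are libraries, bars the mean and SD of 4 libraries. The MSTRG.6188.3 ratio averages 18.8 in NAC_HFD, 21.0 in HFD and 22.7 in NFD, and the MSTRG.24254.2 share averages 44.7%, 12.3% and 32.2% in the same order.

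Among the other abundant members, MSTRG.22083.1 had 1011, 1122, 1572 and 1265 TPM in NAC_HFD, 924, 1016, 921 and 773 TPM in HFD, and 1302, 1112, 1602 and 1453 TPM in NFD. Every HFD library was below every NFD library, with a limma log2 fold change of -0.58 (SE 0.16, adjusted p = 0.351) for HFD against NFD. MSTRG.3645.1 had 1522, 2652, 992 and 1082 TPM in NAC_HFD, 1149, 909, 1234 and 1261 TPM in HFD, and 880, 796, 603 and 905 TPM in NFD. Both high fat diet groups lay above NFD without overlap, and NAC_HFD2 was the highest library, without which the NAC_HFD mean was 1199 ± 283 TPM (SD, n = 3), against 1562 ± 762 TPM with it (SD, n = 4). The limma log2 fold change against NFD was 0.88 (SE 0.27, adjusted p = 0.188) in NAC_HFD and 0.52 (SE 0.27, adjusted p = 0.666) in HFD.

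MSTRG.10620.2 had 407, 982, 659 and 777 TPM in NAC_HFD, 442, 440, 380 and 370 TPM in HFD, and 401, 409, 411 and 518 TPM in NFD. NAC_HFD1 lay within the range of HFD and NFD, and the other 3 NAC_HFD libraries lay above every HFD and NFD library. Without NAC_HFD2 the NAC_HFD mean was 614 ± 189 TPM (SD, n = 3), against 706 ± 240 TPM with it (SD, n = 4). The limma log2 fold change for NAC_HFD against HFD was 0.73 (SE 0.22, adjusted p = 0.286), and without NAC_HFD1 it was 0.97 with an adjusted p of 0.0474 (range 0.0474 to 0.488 over 22 alternatives). MSTRG.6205.1 ranged from 353 to 513 TPM in NAC_HFD, 377 to 441 TPM in HFD and 452 to 562 TPM in NFD, so HFD lay below NFD without overlap. MSTRG.26302.1 had 81.3, 80.9, 83.2 and 62.7 TPM in HFD, below the 99.4, 90.7, 86.4 and 86.2 TPM of NFD in every library, while its NAC_HFD libraries (65.1 to 94.9 TPM) overlapped with both. MSTRG.1578.1 and MSTRG.4823.1, at means of 83.9 and 78.7 TPM, overlapped between groups.

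**Figure D3:**
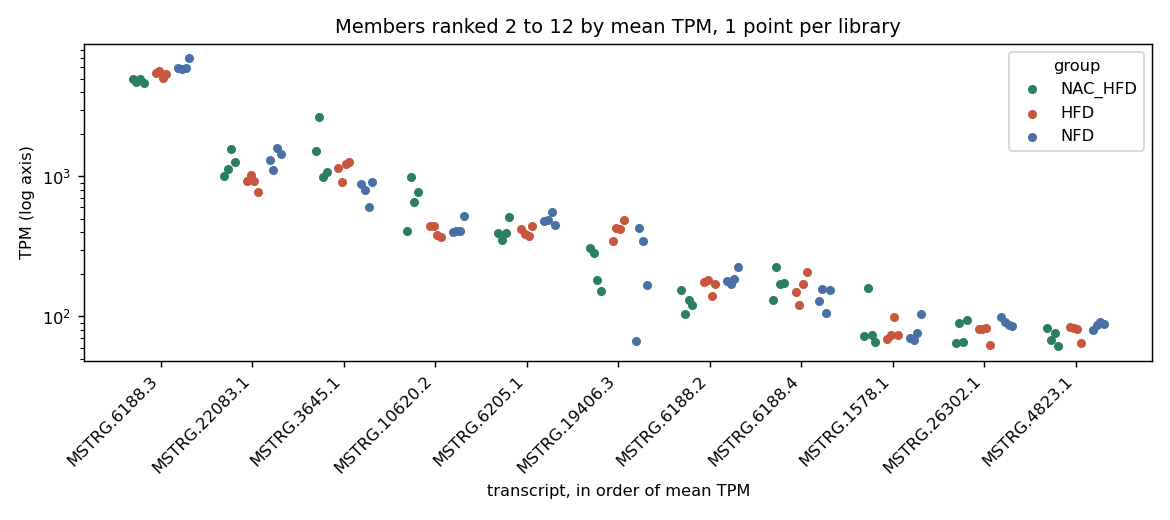
TPM (log axis) of the members that follow MSTRG.6188.1 in mean level, 1 point per library, with NAC_HFD, HFD and NFD side by side for each transcript. MSTRG.6188.3 is lowest in NAC_HFD and highest in NFD, and MSTRG.10620.2 reaches 982 TPM in NAC_HFD2.

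Across the whole set, no member passed limma's test on the log2(TPM + 0.1) scale with p-values adjusted over the 25205 tested transcripts. For HFD against NFD, 0 of 175 members passed, against 0.0278% of all tested transcripts (7 transcripts), and the smallest adjusted p of a member was 0.148. At an unadjusted p under 0.05 there were 18 members, or 10.3% against 8.02% of all tested transcripts and 857 of the 8569 with a mean of at least 1 TPM. Of the 18, 5 (2.86%) were higher in HFD, against 3.21% of all tested and 3.83% of the 8569. The other 13 (7.43%) were lower, against 4.8% and 6.17%. In 19 members (10.9%) the groups did not overlap, against 4.78% of all tested and 549 of the 8569. Of these, 5 (2.86%) were higher in HFD, against 1.99% of all tested and 2.63% of the 8569. The other 14 (8%) were lower, against 2.79% and 3.78%. Both counts of 5 include MSTRG.26274.5, which passed the member threshold only through HFD. The median log2 fold change was -0.09 over the members, -0.09 over all tested transcripts and -0.10 over the 8569. With median-of-ratios scaling it was 0.01 over the members and -0.01 over all tested.

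The members of smallest p for HFD against NFD were MSTRG.24254.2, MSTRG.1351.1 and MSTRG.22084.1. MSTRG.24254.2 had 2.35, 1.24, 1.02 and 1.93 TPM in HFD and 4.69, 5.34, 6.02 and 7.04 TPM in NFD, a log2 fold change of -1.81 (SE 0.33, limma adjusted p = 0.148). MSTRG.1351.1 had 17.9, 23.8, 12.2 and 19.5 TPM in HFD and 6.78, 5.37, 5.18 and 9.25 TPM in NFD, a log2 fold change of 1.45 (SE 0.28, limma adjusted p = 0.190). MSTRG.22084.1 had 51.3, 55.3, 58.6 and 47.5 TPM in HFD and 89.1, 85.8, 120 and 79.2 TPM in NFD, a log2 fold change of -0.80 (SE 0.17, limma adjusted p = 0.243). In each of these 3 transcripts all 4 HFD libraries lay on one side of all 4 NFD libraries. In the NAC_HFD libraries MSTRG.1351.1 had 12.4, 5.59, 10.6 and 9.55 TPM and MSTRG.22084.1 had 49.7, 62.6, 80.1 and 70.6 TPM.

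The other members named for groups that did not overlap were smaller or more variable. MSTRG.26274.5 was listed at 0 in all 4 NFD libraries and had 2.58, 3.89, 4.83 and 0.02 TPM in HFD, so no fold change is given, and its limma adjusted p was 0.430. It became a member only through its HFD level, so neither this test nor its lack of overlap is support for a difference. A second isoform of the locus, MSTRG.26274.6, averaged 5.60 ± 0.768 TPM in HFD and 9.22 ± 1.88 TPM in NFD (SD, n = 4 each; log2 fold change -0.70, limma adjusted p = 0.339). MSTRG.14597.2 averaged 67.4 ± 14.4 TPM in HFD and 39.2 ± 6.41 TPM in NFD (SD, n = 4 each; log2 fold change 0.77, limma adjusted p = 0.505). MSTRG.26943.1 (log2 fold change 0.57) and MSTRG.4611.2 (log2 fold change -0.85) had limma adjusted p-values of 0.719 and 0.534.

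**Figure D4:**
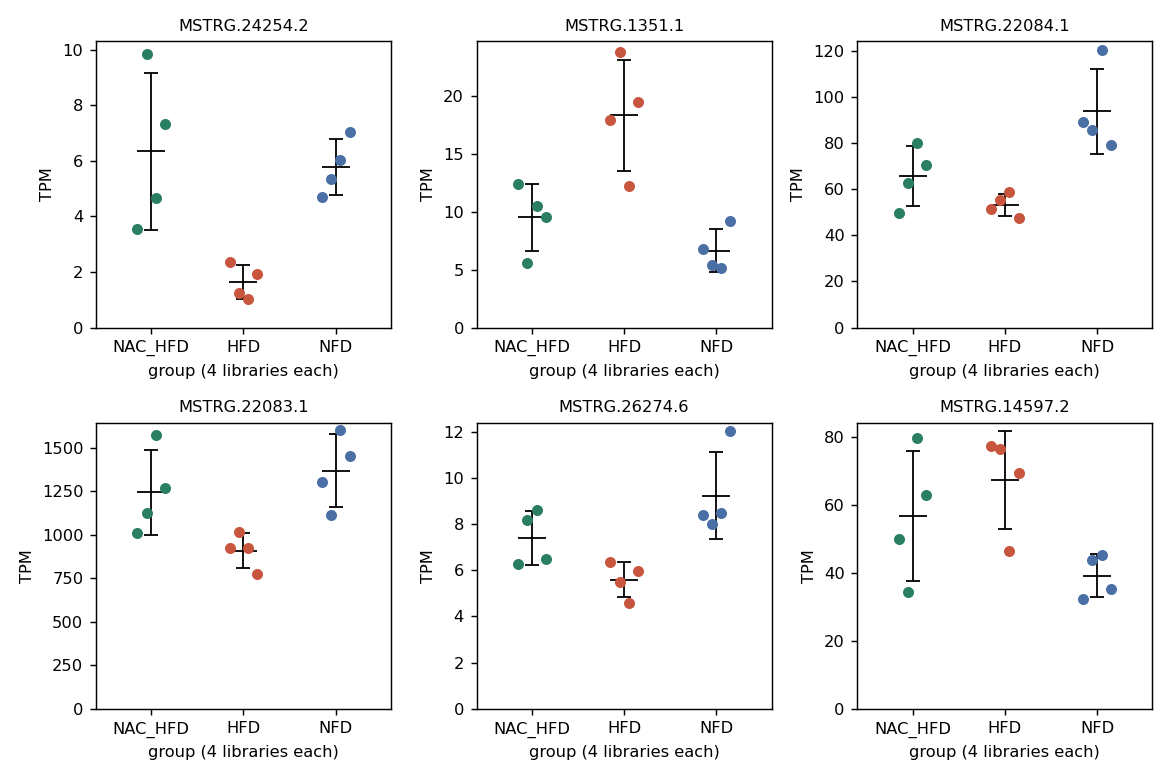
TPM per library of 6 members whose HFD and NFD libraries did not overlap, with the NAC_HFD group on the left. Points are libraries, bars the mean and SD of 4 libraries, and each panel has its own axis starting at 0. MSTRG.24254.2 averages 6.35 TPM in NAC_HFD, 1.64 TPM in HFD and 5.77 TPM in NFD. None of the 6 passed the adjusted threshold.

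For NAC_HFD against HFD, 0 of 175 members passed, against 0.0317% of all tested transcripts (8 transcripts), and the smallest adjusted p of a member was 0.120. At an unadjusted p under 0.05 there were 22 members, or 12.6% against 10.1% of all tested and 1236 of the 8569 with a mean of at least 1 TPM. Of the 22, 13 (7.43%) were higher in NAC_HFD, against 2.64% of all tested and 4.13% of the 8569. The other 9 (5.14%) were lower, against 7.49% and 10.3%. Groups did not overlap in 11 members (6.29%), against 5.56% of all tested and 681 of the 8569. Of these, 7 (4%) were higher in NAC_HFD, against 1.47% of all tested and 2.45% of the 8569. The other 4 (2.29%) were lower, against 4.09% and 5.5%. The median log2 fold change of the members was 0.12, against -0.11 over all tested transcripts and -0.08 over the 8569. It was positive in 115 of 175 members, in 10290 of the 25205 tested transcripts and in 3691 of the 8569. With median-of-ratios scaling the medians were 0.22 for the members and -0.03 for all tested. Without NAC_HFD2, as deposited, the medians were 0.02 for the members and -0.13 for all tested. Then 94 members and 9838 of all tested transcripts were positive.

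MSTRG.24254.2 was again the member of smallest p. It had 3.54, 9.86, 4.66 and 7.32 TPM in NAC_HFD, all above the HFD libraries, with a log2 fold change of 1.86 (SE 0.33, limma adjusted p = 0.120). Leaving out NAC_HFD1 gave 2.09 with an adjusted p of 0.0424 (range 0.0424 to 0.306 over 22 alternatives). MSTRG.17246.2 had 0.36, 0.11, 1.57 and 0.17 TPM in NAC_HFD and 2.36, 4.88, 2.48 and 1.73 TPM in HFD, a log2 fold change of -2.59 (SE 0.65, limma adjusted p = 0.215). Most of its NAC_HFD values lay near the pseudocount of 0.1 TPM, and its log2 fold change was -3.22 to -1.34 over 22 alternatives. MSTRG.25.1 averaged 5.79 ± 0.704 TPM in NAC_HFD, against 3.83 ± 0.586 TPM in HFD (SD, n = 4 each; log2 fold change 0.59, limma adjusted p = 0.273).

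Further members with no overlap between NAC_HFD and HFD were MSTRG.4861.1 (log2 fold change 0.59), MSTRG.13871.2 (1.31), MSTRG.8659.1 (0.64) and MSTRG.14554.1 (-1.79). MSTRG.4861.1 averaged 7.76 ± 1.37 TPM in the NAC_HFD libraries, against 5.07 ± 0.486 TPM in the HFD libraries (SD, n = 4 each, limma adjusted p = 0.311). The highest NAC_HFD value of MSTRG.13871.2 was 3.26 TPM, in NAC_HFD2, and MSTRG.14554.1 was listed at 0 in that library. Without NAC_HFD2 the NAC_HFD means were 0.833 ± 0.184 TPM and 1.22 ± 0.0416 TPM (SD, n = 3), against HFD means of 0.420 and 2.47 TPM. MSTRG.19406.3 had 310, 286, 183 and 152 TPM in NAC_HFD, 347, 429, 423 and 488 TPM in HFD, and 67.2, 430, 344 and 167 TPM in NFD. NAC_HFD lay below HFD without overlap (log2 fold change -0.91, SE 0.48, limma adjusted p = 0.551), and NFD spanned both.

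For NAC_HFD against NFD, 0 of 175 members passed, against 0.0992% of all tested transcripts (25 transcripts), and the smallest adjusted p was the 0.116 of MSTRG.6188.3. At an unadjusted p under 0.05 there were 20 members, or 11.4% against 13.3% of all tested and 1626 of the 8569 with a mean of at least 1 TPM. Of the 20, 8 (4.57%) were higher in NAC_HFD, against 2.75% of all tested and 4.33% of the 8569. The other 12 (6.86%) were lower, against 10.5% and 14.6%. Groups did not overlap in 13 members (7.43%), against 6.92% of all tested and 857 of the 8569. Of these, 4 (2.29%) were higher in NAC_HFD, against 1.16% of all tested and 1.93% of the 8569. The other 9 (5.14%) were lower, against 5.75% and 8.08%. The median log2 fold change was 0.02 over the members, -0.19 over all tested and -0.18 over the 8569. With median-of-ratios scaling it was 0.22 over the members and -0.03 over all tested. Without NAC_HFD2, as deposited, the medians were -0.09 for the members and -0.22 for all tested.

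After the MSTRG.6188 isoforms, the smallest p belonged to MSTRG.23481.1, with 4.59, 3.14, 6.20 and 7.30 TPM in NAC_HFD and 11.6, 11.1, 7.13 and 8.64 TPM in NFD. Its groups overlapped by 1 library (log2 fold change -0.89, SE 0.26, limma adjusted p = 0.171). MSTRG.25437.2 had 22.5, 31.6, 9.88 and 7.64 TPM in NAC_HFD, 5.89, 6.99, 12.8 and 17.8 TPM in HFD, and 0.32, 7.25, 1.58 and 6.34 TPM in NFD. NAC_HFD was above NFD in every library (log2 fold change 2.67, SE 0.82, limma adjusted p = 0.188), and the highest value lay in NAC_HFD2. MSTRG.26943.1 averaged 29.2 ± 20.8 TPM in NAC_HFD and 12.5 ± 1.70 TPM in NFD (SD, n = 4 each; log2 fold change 1.01, limma adjusted p = 0.239), with 60.3 TPM in NAC_HFD2. Without that library the NAC_HFD mean was 18.8 ± 2.11 TPM for MSTRG.26943.1 and 13.3 ± 8.02 TPM for MSTRG.25437.2 (SD, n = 3). MSTRG.17757.3 had a log2 fold change of 0.60, while MSTRG.1366.1 (-0.80), MSTRG.5630.1 (-1.04) and MSTRG.17565.3 (-0.50) were lower in NAC_HFD without overlap and without passing the test.

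Log2 fold changes of at least 1 or at most -1 were found in 9 and 10 members for HFD against NFD, in 11 and 12 for NAC_HFD against HFD, and in 9 and 11 for NAC_HFD against NFD. The 9 for HFD against NFD include MSTRG.26274.5, a member only through HFD. Among all tested transcripts the shares were 4.27% and 5.64%, 3.59% and 7.25%, and 3.63% and 9.52% in the same order, and among the members 5.14% and 5.71%, 6.29% and 6.86%, and 5.14% and 6.29%.

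The loci of 6 members also hold transcripts of the deposited mRNA table, whose protein hits name a relative. Both coding transcripts of MSTRG.24254 carry the prothymosin and parathymosin domain. The minor one, MSTRG.24254.6 (0.823 TPM in NAC_HFD, 0.353 TPM in HFD and 0.783 TPM in NFD), hits parathymosin (Ptms), a small acidic nuclear protein. The main one, MSTRG.24254.5 (7.54 TPM in NAC_HFD, 12.9 TPM in HFD and 12.1 TPM in NFD), has an enhancer of polycomb-like protein of another rodent as its protein hit. The member MSTRG.24254.2 held 29.2%, 39.1%, 51.0% and 59.3% of the locus in NAC_HFD, 18.7%, 7.56%, 5.19% and 17.7% in HFD, and 28.4%, 30.5%, 44.0% and 26.1% in NFD. HFD was below both other groups without overlap. The locus as a whole had 14.7 ± 7.17 TPM in NAC_HFD, 14.9 ± 3.94 TPM in HFD and 18.7 ± 5.80 TPM in NFD (SD, n = 4 each), and its smallest limma adjusted p in the gene table was 0.461. Over the 75 members that share a locus with another transcript, 4 had shares without overlap in each comparison (5.33%). Among all such transcripts the rates were 4.54% for HFD against NFD, 6.31% for NAC_HFD against HFD and 7.7% for NAC_HFD against NFD. Shares of a locus are parts of the same total, so these members are not separate events. HFD against NFD counts both members of MSTRG.14597, and also MSTRG.26274.5, a member only through HFD. NAC_HFD against NFD counts MSTRG.6188.1, MSTRG.6188.2 and MSTRG.6188.3.

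The annotated genes named by those hits were tested in the gene table, where 2.78% of 11376 genes passed for HFD against NFD, 0.0% for NAC_HFD against HFD and 5.28% for NAC_HFD against NFD. Saa4, a serum amyloid A apolipoprotein of high density lipoprotein that the hits name at the locus of MSTRG.25437.2, rose in both high fat diet groups relative to NFD. It had 303, 215, 125 and 147 TPM in NAC_HFD, 252, 177, 218 and 316 TPM in HFD, and 72.7, 83.4, 64.4 and 86.9 TPM in NFD. Its log2 fold change against NFD was 1.27 (SE 0.25, limma adjusted p = 0.0171) in NAC_HFD and 1.61 (SE 0.25, limma adjusted p = 0.00845) in HFD. The coding transcript of that locus, MSTRG.25437.1, averaged 2.34 ± 2.08 TPM in NAC_HFD, 0.863 ± 0.0680 TPM in HFD and 0.765 ± 0.598 TPM in NFD (SD, n = 4 each). Ptms rose in NAC_HFD relative to NFD, with 497 ± 42.2 TPM against 358 ± 26.9 TPM (SD, n = 4 each; log2 fold change 0.47, limma adjusted p = 0.0158). In HFD it had 431 ± 13.0 TPM (SD, n = 4), above every NFD library without passing (log2 fold change 0.27, limma adjusted p = 0.134). NAC_HFD and HFD overlapped for Ptms (limma adjusted p = 0.307).

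The locus gene MSTRG.19406, whose coding transcript hits major urinary protein 17 (Mup17), a secreted lipocalin of mouse liver, had 3763 ± 601 TPM in NAC_HFD, 3701 ± 759 TPM in HFD and 2233 ± 666 TPM in NFD (SD, n = 4 each). It rose in NAC_HFD relative to NFD (log2 fold change 0.79, SE 0.21, limma adjusted p = 0.0429), a call that held without NFD2 or HFD4 and was lost without any 1 of the other 10 libraries (adjusted p of 0.0200 to 0.119 over the 12). Its coding transcript had 3530 ± 633 TPM in NAC_HFD, 3279 ± 727 TPM in HFD and 1981 ± 594 TPM in NFD (SD, n = 4 each), while the member MSTRG.19406.3 had 233, 422 and 252 TPM on average in those groups. The annotated gene Mup17 itself passed in no comparison (limma adjusted p of 0.532 to 0.934), with 1479 ± 1033 TPM in NAC_HFD, 1322 ± 1060 TPM in HFD and 746 ± 173 TPM in NFD (SD, n = 4 each) and overlapping groups. The Mup genes are near-identical copies, so the division of reads among them is uncertain.

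The remaining 3 such loci carried no called gene. MSTRG.30219.9, at a locus with hits to the mitochondrial NADH dehydrogenase subunit 5, averaged 57.4 ± 19.9 TPM in NAC_HFD, 38.3 ± 6.00 TPM in HFD and 44.1 ± 10.4 TPM in NFD (SD, n = 4 each). MSTRG.6382.5, at a locus with hits to Slc10a1, the bile acid uptake transporter of hepatocytes, averaged 4.97 ± 1.90 TPM in NAC_HFD, 4.25 ± 1.19 TPM in HFD and 4.30 ± 0.375 TPM in NFD (SD, n = 4 each). MSTRG.7186.4, at a locus with a hit to the LINE-1 reverse transcriptase protein, had 5.28, 4.17, 4.58 and 4.07 TPM in HFD, below the 5.72, 5.82, 6.18 and 6.18 TPM of NFD in every library (log2 fold change -0.40, SE 0.13, limma adjusted p = 0.505).

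Most loci (125 of 145) had 1 member, 15 had 2 and 5 had at least 3. The 6 members of MSTRG.2702 had coefficients of variation of 61.4 to 110% over the 12 libraries, against 42.8% for the locus. MSTRG.2702.3 had 0.55, 6.52, 0.04 and 0.91 TPM in NAC_HFD, 2.39, 0.00, 3.77 and 0.00 TPM in HFD, and 4.75, 1.66, 3.43 and 2.72 TPM in NFD. At MSTRG.29149 the 3 members together summed to between 37.3 and 347 TPM, and MSTRG.29149.3 was listed at 0 in 3 libraries and reached 227 TPM in NAC_HFD4.

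The 4 members of MSTRG.19395 and the 3 of MSTRG.19363 had their highest sums in NAC_HFD2, at 261 and 47.1 TPM. The MSTRG.19395 members summed to 149 ± 84.9 TPM in NAC_HFD, 109 ± 52.0 TPM in HFD and 137 ± 18.2 TPM in NFD (SD, n = 4 each). The MSTRG.19363 members summed to 24.6 ± 17.1 TPM in NAC_HFD, 14.1 ± 9.15 TPM in HFD and 20.4 ± 2.82 TPM in NFD (SD, n = 4 each). At both loci NFD was the least variable group. Without NAC_HFD2 the NAC_HFD sums averaged 112 ± 49.9 TPM at MSTRG.19395 and 17.1 ± 10.03 TPM at MSTRG.19363 (SD, n = 3), below the NFD means in both cases. The pairs of members, MSTRG.19839.1 with MSTRG.19839.2 and MSTRG.28278.2 with MSTRG.28278.3, had identical values in all 12 libraries, so each pair is 1 measurement counted as 2 members.

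The coefficient of variation over the 12 libraries had a median of 28.7% among members (quartiles 18.7% and 47.1%) and of 32.5% among the other lncRNA transcripts with a mean of at least 1 TPM (quartiles 23.0% and 45.9%). In all, 152 members were above 0 in every library and 23 (13.1%) were listed at 0 in at least 1, against 8.09% of the other transcripts. The steadiest members after MSTRG.6188.1 were MSTRG.9822.1, at 52.3 to 68.5 TPM, and MSTRG.21066.1, at 9.82 to 13.4 TPM. The most variable were MSTRG.21940.2 (190% coefficient of variation), MSTRG.18962.1 (159%) and MSTRG.12355.2 (156%). MSTRG.21940.2 had 1.91, 7.48, 0.00 and 0.00 TPM in NAC_HFD, 0.66, 0.00, 0.89 and 0.51 TPM in HFD, and 0.00, 1.76, 0.00 and 0.15 TPM in NFD.

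One library held the highest value of many members. NAC_HFD2 was the highest library for 59 of 175 members (33.7%), against 13.4% of the other lncRNA transcripts, and 30 members there exceeded 2 times their median over the libraries, against 3 to 12 members in each other library. Beyond the members, it also held the highest value of 26.3% of 255 assembled loci in the gene table (some of them the members' own), against 6.85% of 10875 annotated genes. For NFD4 those shares were 26.7% and 6.75%, and 13.7% of the members. In NAC_HFD2, MSTRG.1142.4 had 127.6 TPM against 7.81 to 39.4 TPM in the other libraries, and MSTRG.28560.6 had 4.98 TPM against 0.56 to 2.69 TPM. The nuclear lncRNA Malat1 was highest in the same library (4675 TPM), and the summed erythroid markers were lowest there (345 TPM). The part of these in the members' values was not tested. The group with the highest mean was NAC_HFD for 81 members, HFD for 35 and NFD for 59, and without NAC_HFD2 it was NAC_HFD for 51, HFD for 40 and NFD for 84. Neither these counts nor those above 2 times the median were made for the other lncRNA transcripts, so they only describe the members.

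**Figure D5:**
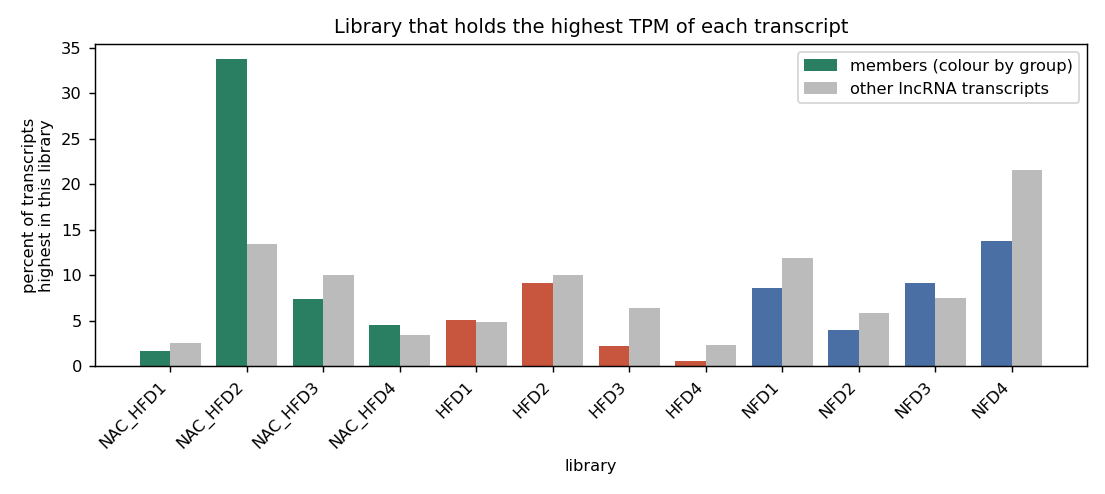
Percent of the 175 members (coloured by group) and of the 8396 other lncRNA transcripts with a mean of at least 1 TPM (grey) whose highest value lies in each library, with the libraries in the order NAC_HFD, HFD, NFD. NAC_HFD2 holds 33.7% of the members and 13.4% of the other transcripts, and NFD4 holds 21.6% of the others.

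Annotated noncoding RNAs gave a measure beside the members. Of 17 listed, 13 were matched by symbol. H19 was matched but had no tested transcript, and the others had 81. Among the 81, 1 passed for HFD against NFD (ENSMUST00000206383 of Snhg1, log2 fold change -1.29, limma adjusted p = 0.0351) and 0 for NAC_HFD against HFD and for NAC_HFD against NFD. Snhg1, a host gene of small nucleolar RNAs, summed to 34.9, 33.6, 40.7 and 33.9 TPM in NAC_HFD, 28.7, 30.8, 32.1 and 23.9 TPM in HFD, and 72.2, 51.9, 67.6 and 62.3 TPM in NFD. Gas5 summed to 73.2 to 94.3 TPM in NAC_HFD, 76.2 to 94.1 TPM in HFD and 97.3 to 115 TPM in NFD. Meg3 summed to 0.24 to 1.43, 0.40 to 1.79 and 2.98 to 13.2 TPM in the same order. For both, NFD lay above the other groups without overlap. Snhg12 in HFD (6.77 to 9.05 TPM) lay below NFD (9.13 to 11.5 TPM) without overlap. No transcript of Gas5, Meg3 or Snhg12 passed. Malat1 and the RNase MRP RNA Rmrp, both abundant nuclear RNAs, averaged 3926 ± 636 and 5633 ± 879 TPM in NAC_HFD, 3387 ± 330 and 5043 ± 669 TPM in HFD, and 3605 ± 519 and 4796 ± 1080 TPM in NFD (SD, n = 4 each). Their groups overlapped.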

How the data were processed

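The authors deposited TPM per transcript and gene for 12 liver libraries. Per the submitters' processing notes the tools were fastp, HISAT and RSEM with build GRCm38. Neither their versions and roles nor the assembler are given in the sources used here. TPM keeps no read depth, so depth is unknown and no counting interval is given. A library's mRNA and lncRNA TPM share a fixed total, so 1 abundant transcript lowers all others. RNA was DNase-treated total RNA per the labels.

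Groups and replicate numbers come from the labels. The labels do not say whether libraries are separate animals, so p-values measure only the spread between these samples. Transcripts with at least 0.1 TPM in at least 4 libraries were tested on log2(TPM + 0.1), and genes with at least 1 TPM in at least 4 libraries on log2(TPM + 1), with limma 3.58.1 in R 4.3.3. One model with 3 group means was fitted (eBayes with trend and robust), two-sided, with Benjamini-Hochberg adjustment per comparison and a threshold of 0.05. All 175 members passed the filter. The pseudocount understates fold changes of low transcripts. The fit was run on simulated data with independent normal noise, where effects were planted only in transcripts of below-median spread. That run does not cover variable transcripts or those with many zeros.

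Members and lists were chosen with earlier results of these data known. Named members are the 12 most abundant, the 3 of smallest p and the 4 largest fold changes per direction without overlap in each comparison, the members of the 4 loci with most members, the 2 on either side of the threshold, and the 3 most and 3 least variable. MSTRG.10620.2 and MSTRG.29149.3 are also described for values seen in the data, as are MSTRG.1142.4 and MSTRG.28560.6. Members at loci with mRNA transcripts are all described. 1 transcript is not reported here. Alternatives tried were other pseudocounts, filters, scalings, member thresholds, fits, a replicate block and leaving out each library.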

Additional observations from a re-analysis of the deposited data

Results flagged for a closer look

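Each group of 4 libraries was examined for 1 library far from the rest, in 159 groups of named members and library sums. In 20 of them a library stood apart. Some named members were picked for high variation or large fold changes in these same values, so no chance rate applies to this count. In NAC_HFD2 these were MSTRG.1578.1 (160 TPM), MSTRG.26943.1 (60.3 TPM), MSTRG.13871.2 (3.26 TPM), MSTRG.2702.3 (6.52 TPM), the summed members without MSTRG.6188.1 (12896 TPM), and MSTRG.14554.1, which was listed at 0.0 TPM there against 1.17 to 1.25 TPM in the other NAC_HFD libraries. Elsewhere in NAC_HFD, MSTRG.12355.2 had 5.62 TPM in replicate 1, and MSTRG.2702.6 (5.32 TPM) and MSTRG.21066.1 (13.4 TPM) stood high in replicate 3.

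In HFD, MSTRG.26302.1 (62.7 TPM) and MSTRG.4823.1 (64.5 TPM) were low in replicate 4, MSTRG.1578.1 was high in replicate 3 (99.3 TPM), and MSTRG.18962.1 had 3.72 TPM in replicate 2. In NFD, replicate 4 was high for MSTRG.6188.3 (6964 TPM), MSTRG.10620.2 (518 TPM) and MSTRG.26274.6 (12.02 TPM), replicate 3 for MSTRG.4611.2 (2.91 TPM), replicate 2 for MSTRG.18962.1 (1.47 TPM) and MSTRG.21940.2 (1.76 TPM), and replicate 1 for MSTRG.12355.2 (5.95 TPM). No explanation was tested for any of these.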

How the results depend on the processing

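The count of members called was 0 in each comparison under each alternative, except 2 for NAC_HFD against HFD without NAC_HFD replicate 1 (MSTRG.24254.2 and MSTRG.10620.2). Over 27 tests of named members and 593 alternatives, none turned its direction. These members were picked from the same data for small p or for groups without overlap. Some alternatives leave a fold change as it was by design, so a turn was hardly possible and its absence is no evidence. The counts of lncRNA transcripts called in the whole table did move. For HFD against NFD (7) the count was 2 with a filter of 1 TPM, and 2 to 11 leaving out 1 library at a time. For NAC_HFD against HFD (8) it was 5 with no filter, 3 with a filter of 1 TPM, 5 with median-of-ratios scaling, 5 with quantile normalization, 4 with 2 groups only, and 1 to 37 leaving out 1 library. For NAC_HFD against NFD (25) it was 16 with a pseudocount of 1 TPM, 3 with no filter, 79 with a filter of 1 TPM, 13 with 2 groups only, 12 with plain eBayes, and 2 to 69 leaving out 1 library, with the highest value without NAC_HFD replicate 1. With the replicate number as a block the counts were 1, 1 and 1. Same-numbered libraries did not deviate together over all tested transcripts (residual correlations of -0.044 to 0.025). These values show no pairing by number, but a weak pairing could go unseen among many low transcripts. The MSTRG.19406 gene had an unchanged log2 fold change of 0.79 with the block and an adjusted p of 0.0866, and 0.59 to 0.95 leaving out 1 library.

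The members' median for NAC_HFD against NFD was 0.22 with median-of-ratios scaling, which moved the median of all tested transcripts to -0.03, against -0.19 as deposited. Quantile normalization moved the median of all tested to 0.01, and for NAC_HFD against HFD to 0.01 against -0.11. Leaving out 1 library gave members' medians of -0.09 to 0.05 for NAC_HFD against NFD. The summed TPM of the members without MSTRG.6188.1 differed by -164 (HFD minus NFD), 1296 (NAC_HFD minus HFD) and 1132 (NAC_HFD minus NFD) with median-of-ratios scaling, against -1016, 542 and -474 as deposited, so the third difference turned. Leaving out 1 library gave -1202 to -678, 32.6 to 758 and -984 to -135. The share of MSTRG.6188.1 in NAC_HFD minus HFD was -0.94 percentage points of the lncRNA table, and -0.376 to 0.894 leaving out 1 library. The causes were not tested.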
